A study of Mus musculus with 12 samples.

Results

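Nonsense-mediated decay (NMD) destroys mRNAs on which a ribosome ends translation at a stop codon that the cell reads as premature. The helicase Upf1 gathers at the stalled ribosome, Upf2 and the Upf3 paralogues connect it to exon junction complexes left downstream by splicing, the kinase Smg1 with its partners Smg8 and Smg9 phosphorylates it, and phosphorylated Upf1 recruits Smg5 and the endonuclease Smg6. The pathway also acts on normal mRNAs and is known as a regulator of the exit of embryonic stem cells from pluripotency. The rows of 9 genes (Upf1, Upf2, Upf3a, Upf3b, Smg1, Smg5, Smg6, Smg8 and Smg9) were taken by symbol from a table of 22462 genes, and all 9 were found and passed the filter on low values.

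Mouse embryonic stem cells (ESCs), kept naive with LIF and the 2i inhibitors PD0325901 and CHIR99021 in medium with 15% serum, were compared with epiblast-like cells (EpiLCs). EpiLCs were the same kind of ESC, plated for 24 hours and collected about 56 hours after LIF and 2i were taken away; per the study's methods the transition was followed in a single reporter ESC line, so that the groups stand for 1 line and not for several. Ribosome protected fragments (RPFs), the stretches of mRNA covered by ribosomes, and total RNA were sequenced in 3 libraries each per cell type, 12 libraries in 4 groups. The study calls the replicates biological, while the labels only number them, and p-values measure the spread between these libraries.

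Library totals ran from 6188838 to 14655015 counts for total RNA and from 2681439 to 11359352 for RPFs, and the EpiLC RPF libraries were the shallowest group. Counts of the NMD factors lay between 124 and 10492 per library. Naive and primed markers separated the cell types. The summed level of 6 naive genes was 1570 to 1779 CPM (reads relative to library size, adjusted by TMM factors) in ESC total RNA against 49.5 to 93.8 in EpiLCs. That of 5 formative or primed genes was 169 to 266 against 1308 to 1414. The 2 shared pluripotency genes examined did not stay level. Sox2 was lower in EpiLCs by a log2 change of -2.72 in total RNA and -2.96 in RPFs, and Pou5f1 by -0.65 and -0.50. Markers of other cells were low but not flat. In total RNA, 7 feeder or fibroblast genes summed to 1.96 to 2.31 CPM in ESCs and 12.8 to 14.8 in EpiLCs, with Postn and Lum at 3 counts or fewer in every library, 5 endoderm genes to 3.94 to 5.47 and 13.4 to 20.5, 4 mesoderm genes to 5.82 to 7.27 and 3.77 to 7.39, and 3 neural genes to 9.67 to 14.9 and 20.6 to 24.0. In RPFs the same sums were 6.37 to 7.14 and 34.3 to 41.0 for the feeder or fibroblast genes, 6.37 to 9.21 and 27.3 to 30.0 for endoderm, 12.5 to 18.8 and 7.86 to 9.51 for mesoderm, and 11.4 to 14.8 and 25.2 to 33.4 for neural genes. Their part in the changes of NMD factors was not tested. In bulk libraries like these, a lower level in fewer cells and a lower level in every cell cannot be told apart.

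The counted coding sequence of each gene (mm10, from its first to its last counted base, without the first 45 nt after the start codon) shared no base with another gene. Upf1 (ENSMUSG00000058301.8) lies at chr8:70332623-70352948 on the minus strand and Upf2 (ENSMUSG00000043241.14) at chr2:5957534-6055442 on the plus strand. The paralogues are on separate chromosomes, Upf3a (ENSMUSG00000038398.8) at chr8:13785729-13798474, plus strand, and Upf3b (ENSMUSG00000036572.16) at chrX:37092512-37110186, minus strand. The kinase complex is encoded by Smg1 (ENSMUSG00000030655.15, chr7:118135541-118243245, minus strand), Smg8 (ENSMUSG00000020495.13, chr11:87077953-87086708, minus strand) and Smg9 (ENSMUSG00000002210.11, chr7:24403443-24422378, plus strand). Smg5 (ENSMUSG00000001415.10) is at chr3:88336469-88361108 and Smg6 (ENSMUSG00000038290.15) at chr11:74925961-75162950, both on the plus strand.

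Promoter sequence is shown for 3 members: Upf1, which had the largest change of the 9, and the paralogues Upf3a and Upf3b, whose balance is compared further on. Each run is the 250 bases before the RefSeq transcription start (GRCm38.p6, the assembly of mm10), 5′ to 3′ on the gene's strand, at chr8:70353280-70353529 for Upf1, chr8:13785365-13785614 for Upf3a and chrX:37110323-37110572 for Upf3b. Capitals mark matches to the motifs searched.
Upf1: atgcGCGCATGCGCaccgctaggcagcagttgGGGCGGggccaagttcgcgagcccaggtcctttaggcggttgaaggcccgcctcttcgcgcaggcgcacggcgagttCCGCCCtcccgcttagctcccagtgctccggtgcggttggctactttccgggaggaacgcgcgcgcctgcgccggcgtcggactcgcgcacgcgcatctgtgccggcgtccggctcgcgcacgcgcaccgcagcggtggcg
Upf3a: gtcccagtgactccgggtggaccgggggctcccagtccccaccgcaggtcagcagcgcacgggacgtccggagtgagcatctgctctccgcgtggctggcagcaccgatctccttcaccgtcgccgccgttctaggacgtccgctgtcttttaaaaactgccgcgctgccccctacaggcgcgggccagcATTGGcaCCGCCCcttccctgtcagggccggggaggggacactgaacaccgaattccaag
Upf3b: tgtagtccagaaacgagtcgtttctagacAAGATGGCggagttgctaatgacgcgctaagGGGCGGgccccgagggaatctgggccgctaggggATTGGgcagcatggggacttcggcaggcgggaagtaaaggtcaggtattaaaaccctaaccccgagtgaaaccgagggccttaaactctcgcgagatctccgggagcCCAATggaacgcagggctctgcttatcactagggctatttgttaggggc
The motifs were searched as exact letters on both strands in 32851 RefSeq promoter windows of the same length, in which all 9 genes had an entry. These windows were not limited to tested genes and were not matched for GC content. In the windows of the 9 genes, GC content ran from 50.8% (Smg8) to 72.8% (Upf1), so the shares below do not show an enrichment. The Sp1 GC box GGGCGG was in 7 of 9 windows, all but those of Smg5 and Smg8, against 32.7% of all windows. The CCAAT box (CCAAT) was in 4 (Smg1, Smg8, Upf3a and Upf3b) against 33.8%. The ETS core CCGGAAG was in that of Smg8 (6.91% of all windows), the NRF1 motif GCGCATGC in that of Upf1 (2.26%) and the YY1 core AAGATGGC in that of Upf3b (1.56%). The E-box CACGTG (6.02%) and the CRE TGACGTCA (1.55%) were in none of the 9. In the Upf1 window the matches to the NRF1 motif on both strands overlap. A match describes the letters and does not show that the factor binds.

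The members differ widely in the mRNA they are read from. In the principal Gencode M21 transcript, the coding sequence ran from 1269 nt (Upf3a) to 10977 nt (Smg1), against a median of 1446 nt over 11736 tested genes with an annotation, and the 3′ UTR from 221 nt (Smg8) to 4233 nt (Smg1), against a median of 945 nt. A stop codon followed by an exon junction more than 50 nt downstream is the classical mark of an NMD substrate. None of the 9 principal transcripts had one, as was the case for all but 0.324% of tested genes. Principal transcripts were taken only from those annotated as protein coding, which leaves out transcripts that the annotation assigns to NMD. The absence of the mark was thus largely set by this choice and does not show that these mRNAs escape decay. Smg1, Smg5 and Smg6 each had 1 other transcript that the annotation itself assigns to NMD (3 of 9, against 29.4% of tested genes). An ATG in the 5′ UTR, which can divert scanning ribosomes, was present in Upf2, Smg1, Smg5 and Smg9 (4 of 9, against 48.3%). GC content of the coding sequence was lowest in Upf3b (42.8%), Upf2 (43.5%) and Smg1 (45.7%) and highest in Smg9 (59.6%), with a median of 53.2% over tested genes.

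In total RNA, 2 of the NMD factors passed the test between ESC and EpiLC, and the larger change was that of Upf1. Of the 9, 1 rose (Upf1, 1.53-fold) and 1 fell (Upf3a, 0.870-fold) at an adjusted p below 0.05 (voom and limma, Benjamini-Hochberg over 11750 tested genes), while the other 7 did not pass. Over all tested genes, 34.6% were called higher and 30.7% lower in EpiLCs by the same rule. The median size of the log2 change was 0.09 over the 9 and 0.42 over all tested genes. With the study's limit of an absolute log2 change above 1 added, none of the 9 was called for mRNA, RPF or TE (the translational efficiency, RPF over total RNA), where 24.3%, 26.0% and 0.255% of all tested genes were.

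In RPFs, which count ribosomes on the coding sequence, 4 of the 9 passed. Upf1 and Smg5 rose (2 of 9, against 31.1% of tested genes) and Smg1 and Smg8 fell (2 of 9, against 28.7%). These shares are below those of all tested genes, and the RPF count was not above that for mRNA in every fit: with DESeq2 size factors 4 members passed in each assay, and without ESC RPF replicate 1 there were 4 for mRNA and 3 for RPF. The median size of the log2 change was 0.24 over the 9 and 0.48 over all tested genes. For TE, none of the 9 passed in voom and limma, in edgeR or in DESeq2, and 1.2% of tested genes were called in either direction. At an unadjusted p below 0.05, voom and limma had 2 members (Smg1 and Upf3a), edgeR 1 (Smg1) and DESeq2 2 (Smg1 and Upf3a).

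**Figure D1:**
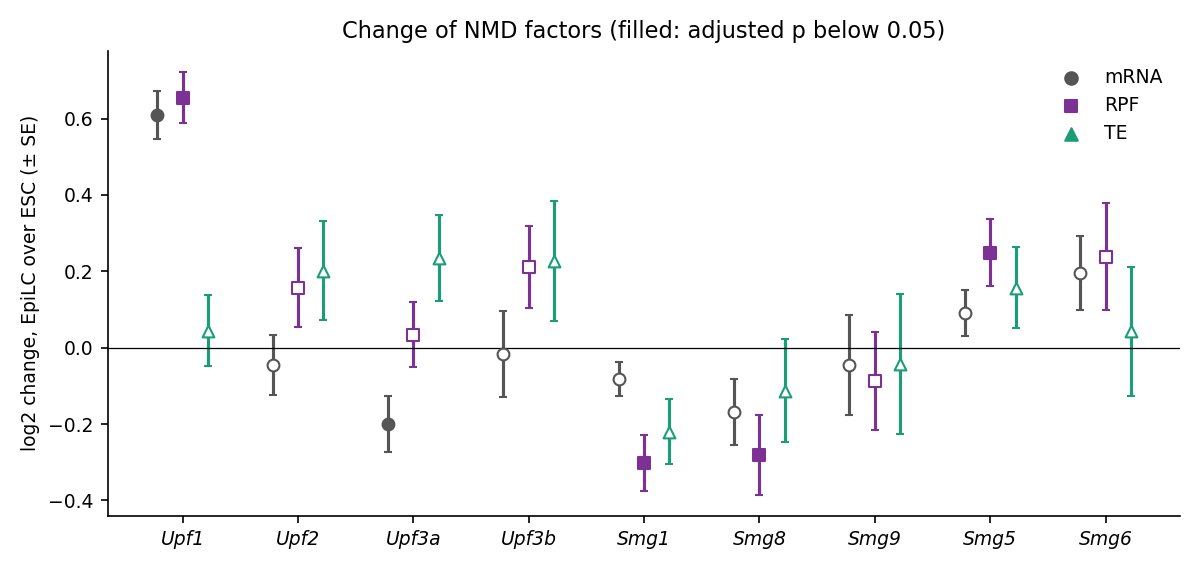
Log2 change from ESC to EpiLC (y axis, with SE) of each NMD factor (x axis) in total RNA (mRNA, circles), RPF (squares) and TE (triangles), from 1 model over 12 libraries. Filled symbols have an adjusted p below 0.05; Upf1 is highest for mRNA (0.61) and RPF (0.65), and no TE symbol is filled.

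Upf1, the ATP-dependent helicase on which every branch of the pathway depends, rose in both assays. Its total RNA level was 366, 385 and 393 CPM in the ESC libraries and 608, 562 and 566 CPM in the EpiLC libraries. In RPFs it was 465, 504 and 508 CPM in ESCs and 802, 860 and 692 CPM in EpiLCs. Every EpiLC library was above every ESC library in both assays. The log2 change was 0.61 ± 0.06 (SE, adjusted p = 5.13e-09, limma) for mRNA and 0.65 ± 0.07 (adjusted p = 8.17e-09) for RPF, and the TE change was 0.04 ± 0.09 (adjusted p = 0.877). Both calls were made in each of the 12 alternative fits and after dropping each library in turn, with an mRNA change between 0.56 and 0.64 and an RPF change between 0.57 and 0.72.

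Upf2, which bridges Upf1 to the Upf3 proteins, was level. In total RNA it read 95.1, 94.5 and 98.2 CPM in ESCs and 91.5, 99.2 and 90.0 CPM in EpiLCs. RPFs were 83.1, 73.2 and 67.0 CPM in ESCs and 79.4, 72.3 and 91.2 CPM in EpiLCs. The groups overlapped in both assays, with log2 changes of -0.04 ± 0.08 for mRNA (adjusted p = 0.633, limma) and 0.16 ± 0.10 for RPF (adjusted p = 0.194). A correction for GC content, which is low in Upf2, gave an RPF change of 0.27 with an adjusted p of 0.0116.

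Upf3a and Upf3b both bind Upf2 and the exon junction complex, and Upf3b is the stronger activator of decay in mammalian cells. Upf3a total RNA was 81.1, 90.6 and 84.0 CPM in ESCs and 71.6, 75.5 and 76.3 CPM in EpiLCs, so that every EpiLC library was below every ESC library. Its RPFs were 96.4, 94.2 and 91.0 CPM in ESCs and 97.3, 90.9 and 97.6 CPM in EpiLCs, and these overlapped. The mRNA change was -0.20 ± 0.07 (adjusted p = 0.0184, limma), the RPF change 0.03 ± 0.08 (adjusted p = 0.745) and the TE change 0.23 ± 0.11 (adjusted p = 0.352, unadjusted p = 0.0463). The mRNA call was lost without ESC total RNA replicate 2 (adjusted p = 0.0946), without EpiLC total RNA replicate 1 (0.126) and with the GC correction (-0.12, adjusted p = 0.138).

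Upf3b was the paralogue with fewer reads. Its total RNA was 33.0, 25.7 and 29.1 CPM in ESCs and 29.2, 29.0 and 28.3 CPM in EpiLCs. RPFs were 64.4, 64.5 and 63.2 CPM in ESCs and 71.5, 62.4 and 84.1 CPM in EpiLCs, with 1 EpiLC library below all ESC libraries. The changes were -0.02 ± 0.11 for mRNA (adjusted p = 0.906, limma) and 0.21 ± 0.11 for RPF (adjusted p = 0.0934), and only the GC corrections brought the RPF change to a call (0.36, adjusted p = 0.00392 without a replicate block).

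The balance of the paralogues was compared within each library, per kb of counted sequence, which removes the library's scaling. In total RNA, Upf3a exceeded Upf3b 2.76-, 3.96- and 3.25-fold in ESCs and 2.75-, 2.92- and 3.03-fold in EpiLCs. In RPFs the excess was 1.68-, 1.64- and 1.62-fold in ESCs and 1.53-, 1.64- and 1.30-fold in EpiLCs. Upf3a had more reads per kb in all 12 libraries, and its excess was smaller in each RPF library than in each total RNA library. A ratio within a library does not remove effects of the genes' own coding GC content, 56.3% in Upf3a and 42.8% in Upf3b. Such effects on the ratio were not tested, and reads do not measure protein. Between cell types the log2 ratio differed by -0.18 in total RNA (exact 2-sided permutation test, p = 0.3, n = 3 per group) and by -0.15 in RPFs (p = 0.2 by the same exact test), and 3 libraries against 3 cannot go below p = 0.1.

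Smg1, the kinase that phosphorylates Upf1, fell in RPFs. Its RPF level was 172, 173 and 173 CPM in ESCs and 137, 140 and 143 CPM in EpiLCs, without overlap. Total RNA was 765, 722 and 734 CPM in ESCs and 680, 716 and 709 CPM in EpiLCs, also without overlap but much closer. The RPF change was -0.30 ± 0.07 (adjusted p = 0.000891, limma), the mRNA change -0.08 ± 0.04 (adjusted p = 0.109) and the TE change -0.22 ± 0.09 (adjusted p = 0.228, unadjusted p = 0.0162). The RPF call was kept in the 12 alternative fits and without each library. For mRNA the result depended on scaling and filter. The fall reached a call in DESeq2 (-0.12, adjusted p = 0.0391) and with DESeq2 size factors in limma (-0.12, 0.0180). It also did with the GC correction (-0.13, 0.0102) and when every gene with a count was tested (-0.12, 0.0176). Without any 1 of the 6 RPF libraries it was called too (adjusted p from 0.0184 to 0.0382, limma). In those 6 fits the median mRNA change of all tested genes was -0.0089 to -0.0083, against 0.03 in the main fit.

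Smg8 and Smg9 form the complex that holds Smg1 in check. Smg8 RPFs were 85.8, 69.6 and 89.7 CPM in ESCs and 67.0, 68.1 and 69.6 CPM in EpiLCs, where ESC replicate 2 lay just below the highest EpiLC library. Its total RNA was 66.9, 64.8 and 71.2 CPM in ESCs and 62.0, 62.0 and 56.1 CPM in EpiLCs, without overlap. The RPF change was -0.28 ± 0.10 (adjusted p = 0.0220, limma), and without ESC RPF replicate 3 it was -0.23 (adjusted p = 0.0839), past the threshold no longer. The mRNA change was -0.17 ± 0.09 (adjusted p = 0.0903, limma). It reached a call with DESeq2 size factors (-0.21, adjusted p = 0.0365) and without 1 of 4 single RPF libraries (adjusted p from 0.0282 to 0.0476). The median mRNA change of all tested genes was 0.03 in the main fit, -0.0150 with DESeq2 size factors and -0.0089 to -0.0083 in those 4 fits.

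Smg9 was the least abundant member by counts. Total RNA was 23.3, 22.9 and 22 CPM in ESCs and 23.5, 19.9 and 21.7 CPM in EpiLCs. RPFs were 44.9, 43.4 and 52.9 CPM in ESCs and 51.4, 51.3 and 36.8 CPM in EpiLCs. The cell types overlapped in both assays, with changes of -0.05 ± 0.13 for mRNA (adjusted p = 0.772, limma) and -0.09 ± 0.13 for RPF (adjusted p = 0.573).

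Smg5 binds phosphorylated Upf1 and brings in phosphatase and decay enzymes. Its RPF level was 90.2, 87.2 and 95.5 CPM in ESCs and 102, 108 and 116 CPM in EpiLCs, without overlap. Total RNA was 234, 243 and 240 CPM in ESCs and 246, 244 and 274 CPM in EpiLCs, with the lowest EpiLC library just above the highest ESC library. The RPF change was 0.25 ± 0.09 (adjusted p = 0.0176, limma) and the mRNA change 0.09 ± 0.06 (adjusted p = 0.182). The RPF rise lost its call without ESC RPF replicate 1 (adjusted p = 0.0964), ESC RPF replicate 2 (0.106), EpiLC RPF replicate 2 (0.0578) or EpiLC RPF replicate 3 (0.16, adjusted p = 0.196), and when every gene with a count was tested (0.0525). The GC correction brought the mRNA rise to a call (0.22, adjusted p = 0.00134).

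Smg6, the endonuclease that cuts the mRNA near the stop codon, had the widest spread for its level among the EpiLC RPF libraries (62.2 ± 15.1 CPM, SD, n = 3). Its total RNA was 84.6, 76.9 and 85.2 CPM in ESCs and 93.3, 109 and 84.1 CPM in EpiLCs. RPFs were 48.7, 53.0 and 48.5 CPM in ESCs and 63.7, 76.4 and 46.4 CPM in EpiLCs, so that EpiLC replicate 3 was the lowest of the 6 libraries and EpiLC replicates 1 and 2 the highest. The changes, 0.20 ± 0.10 for mRNA (adjusted p = 0.0786, limma) and 0.24 ± 0.14 for RPF (adjusted p = 0.144), did not pass. Without EpiLC RPF replicate 3 the RPF change was 0.43 (adjusted p = 0.00712), and without EpiLC total RNA replicate 3 the mRNA change was 0.28 (adjusted p = 0.0229). The GC correction also gave a call for mRNA (0.24, adjusted p = 0.0345).

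Levels were compared between genes per kb of counted sequence (CPM per kb). Upf1 was the most abundant member in each of the 4 groups, at 114 ± 4.26 CPM per kb in ESC total RNA and 174 ± 7.69 in EpiLC total RNA (SD, n = 3). In ESC total RNA, Smg5 followed (79.4), then Upf3a (69.7) and Smg1 (67.7), whose libraries overlapped, and then a second tier of Upf2 (25.5), Smg8 (23.1), Upf3b (21.3) and Smg6 (19.5), among which the last 3 overlapped with their neighbours. Smg9 was lowest (15.0), 7.63-fold under Upf1. The EpiLC order of total RNA was alike at both ends, with 12.2-fold between Upf1 and Smg9, and overlap between Smg1 and Upf3a and along the run Upf2, Smg6, Upf3b and Smg8.

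**Figure D2:**
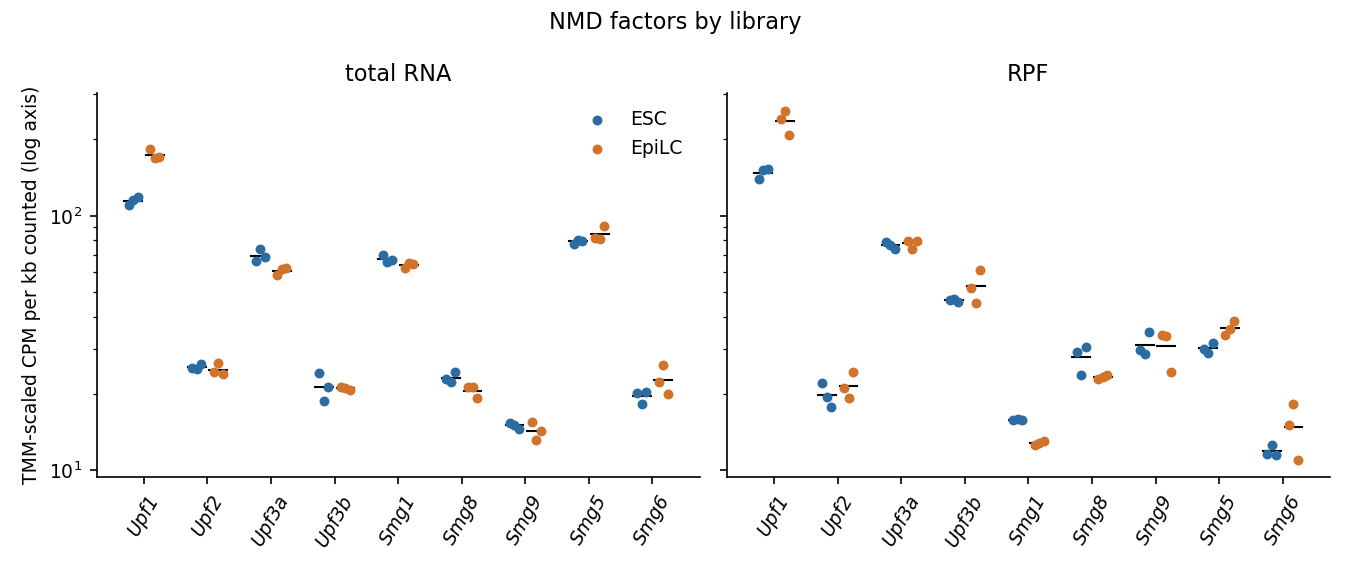
TMM-scaled CPM per kb of counted sequence (log axis) of each NMD factor in the 6 total RNA libraries (left) and the 6 RPF libraries (right), ESC blue and EpiLC orange, with a bar at each mean of 3. Upf1 is at the top of both panels, and Smg1 stands at 62.2 to 70.0 in total RNA but at 12.5 to 15.9 in RPF.

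The RPF order was another one. Below Upf1 (148 ± 7.02 CPM per kb in ESCs, 236 ± 25.7 in EpiLCs) came both Upf3 paralogues, Upf3a at 76.7 and Upf3b at 46.6 in ESCs. Smg9 (31.0), Smg5 (30.2) and Smg8 (27.9) overlapped in sequence, followed by Upf2 (19.8), Smg1 (15.8) and Smg6 (11.9), each clear of its neighbours. In EpiLC RPFs, Smg1 (12.8) was last, with overlap with Smg6 (14.8) just above it, and 18.4-fold separated it from Upf1.

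The shift between the orders is the TE of each gene, computed as log2 RPF minus log2 total RNA at TMM-scaled CPM and paired by replicate number. Whether same-numbered libraries share a culture is not given. The SDs of TE rest on this match, while the means do not. TE of the 9 members spanned 9.41-fold in ESCs and 12.5-fold in EpiLCs, and 4 of 9 lay below the median of tested genes (-0.03 in ESCs and -0.02 in EpiLCs) in each cell type. Smg1 was at the bottom, with a log2 TE of -2.15, -2.06 and -2.09 in ESCs and -2.31, -2.35 and -2.31 in EpiLCs, which put its mean at the 2.32 and 1.96 percentile of 11750 tested genes. Smg5 was next, with -1.39 ± 0.08 in ESCs and -1.23 ± 0.04 in EpiLCs (SD, n = 3; percentiles 7.80 and 11), and Smg6 (-0.71 ± 0.15 and -0.64 ± 0.19) and Upf2 (-0.37 ± 0.18 and -0.21 ± 0.24) were also below the median.

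The other members were at or above it. Upf3b had the highest TE, 1.13 ± 0.18 in ESCs and 1.32 ± 0.23 in EpiLCs, at percentiles 94.3 and 95.2. Smg9 was close, with 1.04 ± 0.19 and 1.09 ± 0.30 (percentiles 92.8 and 92.0). Upf1 (0.37 ± 0.02 and 0.43 ± 0.17), Smg8 (0.26 ± 0.14 and 0.19 ± 0.11) and Upf3a (0.14 ± 0.10 and 0.35 ± 0.09) lay in between. The 3 lowest members in each cell type (Smg1, Smg5 and Smg6) were the 3 with an annotated NMD transcript. Their coding sequences, at 10977, 3054 and 4257 nt, were also longer than those of Upf3b (1419 nt) and Smg9 (1563 nt), which had the highest TE. Length did not give the whole order, since Upf1 (3375 nt) and Upf3a (1269 nt) both lay in between. Both coincidences were picked out after the values were seen and carry no test.

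**Figure D3:**
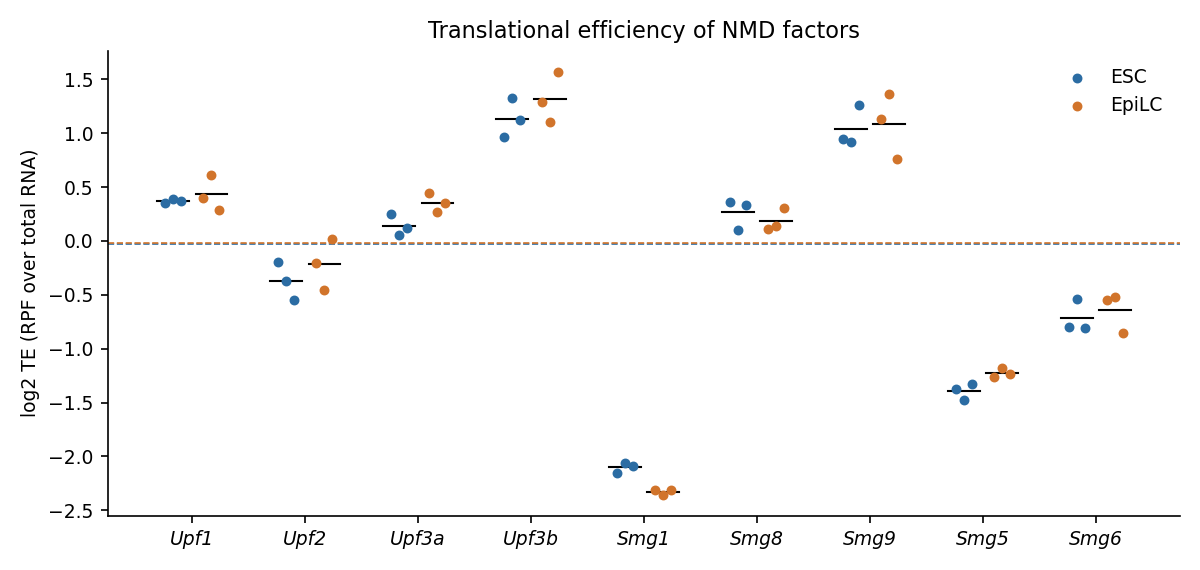
Log2 TE (RPF over total RNA, y axis) of each NMD factor for the 3 replicate numbers in ESC (blue) and EpiLC (orange), with a bar at each mean; dashed lines mark the median of 11750 tested genes. Smg1 lies below -2 in both cell types and Upf3b and Smg9 lie near 1.

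The kinase complex gave an example of how the assays differ. Smg1 exceeded Smg8 in total RNA 2.94 ± 0.16-fold in ESCs and 3.14 ± 0.22-fold in EpiLCs per kb (SD, n = 3), while in RPFs the ratio was 0.574 ± 0.083 and 0.550 ± 0.0013. Against Smg9, Smg1 was at 4.52 ± 0.13 and 4.52 ± 0.49 in total RNA and at 0.513 ± 0.054 and 0.429 ± 0.095 in RPFs. Smg8 and Smg9 were closer to each other in both assays, at 1.54 ± 0.12 and 1.44 ± 0.15 in total RNA and 0.899 ± 0.082 and 0.781 ± 0.173 in RPFs. Smg1 was thus above both partners in every total RNA library and below both in every RPF library. Like the other ratios of levels, this is a description chosen after the values were seen.

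**Figure D4:**
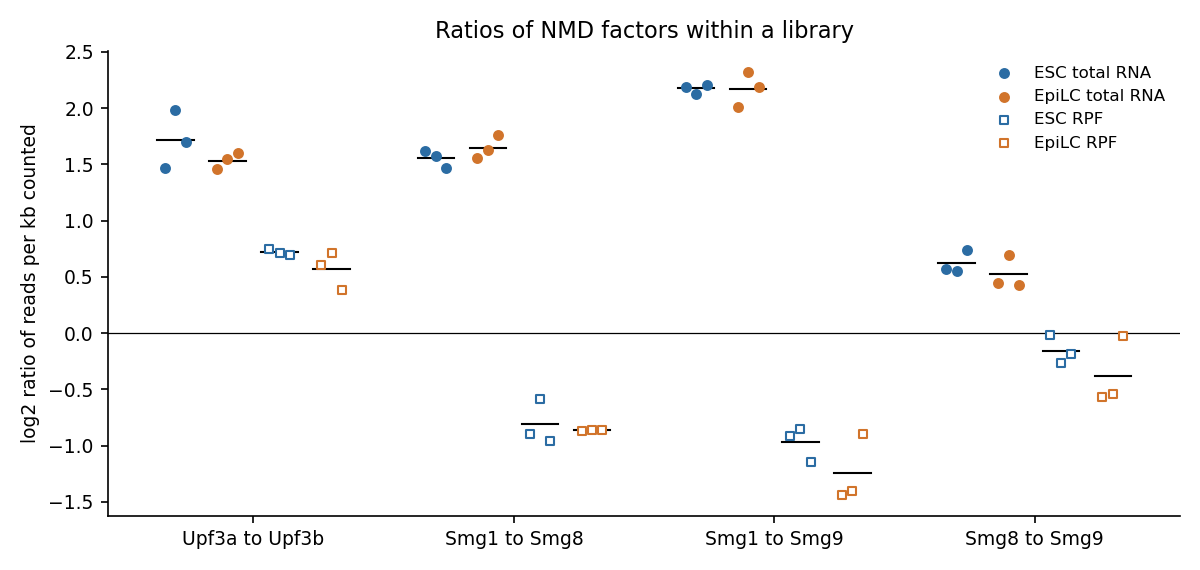
Log2 ratio of reads per kb of counted sequence between pairs of NMD factors within each library (y axis), for 4 pairs and 4 groups of 3 libraries (filled circles total RNA, open squares RPF, bars at means). The ratios of Smg1 to Smg8 and to Smg9 lie above 0 in all total RNA libraries and below 0 in all RPF libraries.

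Over the 12 libraries, the genes whose log2 CPM was most like that of Upf1, the member with the largest rise in mRNA, were Col4a2 (Pearson r = 0.992), Eid1 (0.989) and Isyna1 (0.988), and 576 tested genes had r above 0.9. For Upf3a, the member with the largest fall, they were Hyls1 (0.965), Cfap298 (0.943) and Stard5 (0.942), with 28 genes above 0.9. The 12 points share assay and cell type, so a gene that differs between the 4 groups in the same way scores high, and no p is given.

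Other genes of the pathway had calls in both directions, for mRNA and RPF at shares near or below those of all tested genes. Of 20 on a list of cofactors, release factors, exon junction proteins and factors that shield transcripts, 19 were tested (Sap18 was too low). For mRNA 7 rose (34.6% of all tested genes did) and 4 fell (30.7% did), with a median log2 change of 0.06 against 0.03 over all tested genes. For RPF 6 rose (against 31.1%) and 3 fell (against 28.7%), with a median of -0.0043 against 0.01. The genes higher for mRNA numbered 4 in DESeq2, 4 to 8 over the 12 alternative fits, and 5 to 6 when any 1 library was left out. The genes lower for RPF numbered 5 in DESeq2 and with DESeq2 size factors, 6 when ESC RPF replicate 2 was left out and 5 when EpiLC RPF replicate 1 was left out. None had an absolute log2 change above 1. The genes that fell for mRNA were Nbas, Ruvbl2, Etf1 and Rbm8a, and all but Nbas also fell for RPF; these were named after their values were seen. Rbm8a, the exon junction protein Y14, had a log2 change of -0.49 ± 0.09 for mRNA (adjusted p = 2.12e-05, limma) and -0.68 ± 0.10 for RPF (adjusted p = 1.39e-06). Its near-identical copy Rbm8a2 was counted separately. Only uniquely mapped reads were counted, so reads that match both genes equally are missing from the Rbm8a values, and their share is not known.

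A TE change was called for 2 of these 19 genes, 1 higher and 1 lower, against 1.2% of all tested genes in either direction. Pabpc1, the cytoplasmic poly(A)-binding protein that protects transcripts when it sits close to the stop codon, had RPFs of 341, 341 and 365 CPM in ESCs and 516, 526 and 545 CPM in EpiLCs, without overlap. Its total RNA overlapped, at 1329, 1229 and 1357 CPM in ESCs and 1260, 1436 and 1145 CPM in EpiLCs. The TE change was 0.64 ± 0.10 (adjusted p = 0.000660, limma), called in the 12 alternative fits and without each library. Gspt1, the release factor eRF3a, had a TE change of -0.40 ± 0.09 (adjusted p = 0.0292), with 326, 331 and 349 CPM in ESC total RNA against 392, 429 and 384 in EpiLCs, and RPFs of 475, 450 and 408 against 404, 424 and 374. The Gspt1 call was lost in limma-trend, with every gene that had a count, with the GC correction and without 1 of 6 single libraries, with adjusted p-values between 0.0509 and 0.0937.

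Genes known to yield NMD-sensitive transcripts had calls in both directions, for mRNA and RPF at shares below those of all tested genes. Of 16 listed, 15 were tested (Slc7a11 was too low). For mRNA 2 rose (Gadd45b and Srsf3, against 34.6% of all tested genes) and 4 fell (Cdkn1a, Trib3, Atf4 and Chac1, against 30.7%), with a median log2 change of 0.07. Only 1 was higher for mRNA in DESeq2, in limma-trend, with DESeq2 size factors, with either other filter, and when any 1 library was left out other than ESC total RNA replicates 1 and 2 and EpiLC total RNA replicate 1. For RPF 4 rose (Atf3, Gadd45b, Gadd45a and Srsf2, against 31.1%) and 4 fell (the same 4 as for mRNA, against 28.7%), with a median of 0.02. The number higher for RPF was 2 without ESC RPF replicate 3 and 2 without EpiLC RPF replicate 2. Many of these genes are also controlled by stress signalling and p53, and their counts cover all coding transcripts of a gene, so the values do not measure decay.

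The largest falls in the list were in Cdkn1a, which encodes the cell cycle inhibitor p21, and Trib3, a pseudokinase of the stress response. Cdkn1a total RNA was 33.8, 24.7 and 36.8 CPM in ESCs and 13.4, 14.7 and 11.7 CPM in EpiLCs, a change of -1.26 ± 0.16 (adjusted p = 3.20e-07, limma), and its RPFs changed by -1.09 ± 0.14 (adjusted p = 2.35e-07). Trib3 total RNA was 28.7, 35.2 and 26.4 CPM in ESCs and 14.8, 16.3 and 9.71 CPM in EpiLCs, a change of -1.16 ± 0.15 (adjusted p = 3.97e-07), and its RPFs changed by -1.01 ± 0.16 (adjusted p = 1.00e-05). No EpiLC library reached an ESC library for either gene. Atf3, a stress-induced transcription factor, rose in RPFs from 6.40, 5.94 and 6.87 CPM to 11.6, 12.5 and 15.7 CPM, a change of 1.04 ± 0.24 (adjusted p = 0.000543), with an mRNA change of 0.19 ± 0.18 (adjusted p = 0.371). For TE none of the 15 passed in voom and limma. By the same rule edgeR called 0 and DESeq2 1 (Atf4), and 3 (Atf3, Atf4 and Srsf3) had an unadjusted p below 0.05 in each of the 3 tools.

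**Figure D5:**
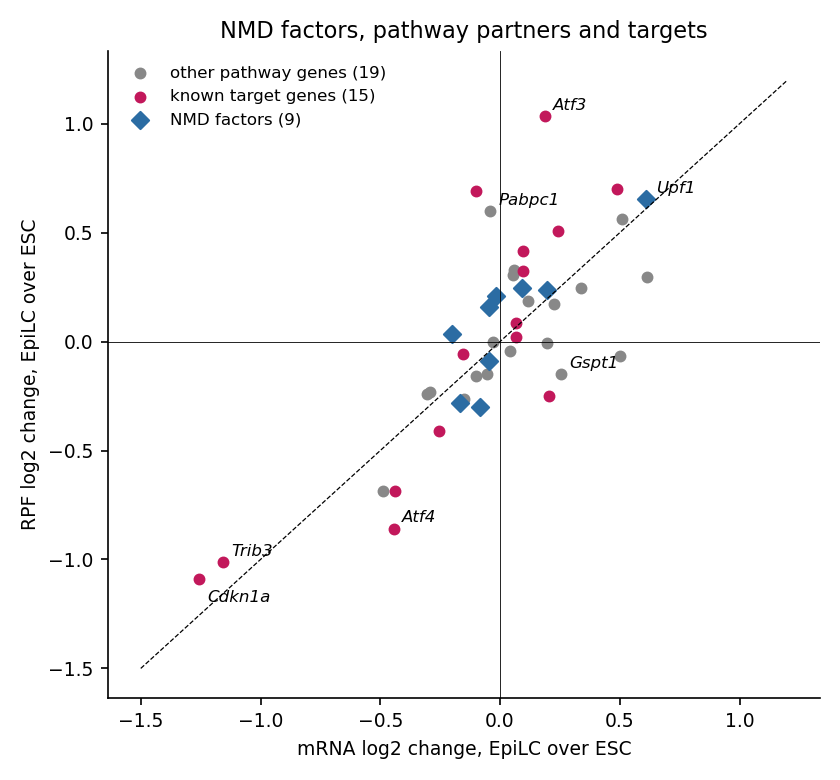
Log2 change from ESC to EpiLC in total RNA (x axis) and RPF (y axis) of the 9 NMD factors (blue diamonds), 19 other pathway genes (grey) and 15 known target genes (magenta), with a dashed line where both changes are equal. Cdkn1a and Trib3 are at the lower left with changes below -1, Upf1 is the highest diamond, and Pabpc1 and Atf3 lie above the line.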

How the data were processed

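The authors deposited raw counts per gene for 12 libraries. Per the file headers, the study's methods and the submitters' processing notes, reads were trimmed with cutadapt 1.14, uniquely mapped with STAR 2.5.3a to mm10 with Gencode M14, and the sense-strand 5′ ends in coding sequence without its first 45 nt were counted with featureCounts 1.5.3. The handling of PCR duplicates is not given in the sources used here, and its effect on the counts was not tested. A further column, the length in nt over which reads were counted, was used as deposited.

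Groups and replicate numbers came from the sample titles. Genes with at least 3 CPM in at least 3 libraries (11750) were kept, scaled by TMM in edgeR 4.0.16 and fitted with voom and limma 3.58.1 (R 4.3.3) as 4 groups without a replicate block. The study names limma, the interaction and the filter, and voom and TMM were added because the values are counts. The contrasts are total RNA (mRNA), RPF and their interaction (TE), EpiLC over ESC. Tests are 2-sided with Benjamini-Hochberg adjustment over all tested genes, called at an adjusted p below 0.05. The fit was run on simulated counts, drawn for each gene around a common mean over all libraries apart from added changes. They held no other difference between assays and no link between same-numbered libraries, so the check does not cover these. Levels are TMM-scaled CPM without a prior count. TE per replicate number and correlations used log2 CPM with a prior count of 0.5.

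The members, gene lists and motifs were chosen with earlier results of these data known. All members were named. From the lists, those past the threshold with an absolute log2 change above 1 (up to 5 per list and assay) or past it for TE were named, with others as stated, and the 3 genes with the highest Pearson r to the members with the largest rise and fall of mRNA. Alternatives were edgeR, DESeq2 1.42.0, limma-trend, other scalings and filters, the fold limit, a replicate block, a GC correction and leaving out each library. Transcript features and GC content came from Gencode M21, a later release than that used for counting, and promoters from RefSeq.

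Libraries of a group differed by more than sampling noise (chi-square per degree of freedom 2.48 to 7.62), so none was counted as a copy of another. 1 gene of the pathway list is not reported here.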

Additional observations from a re-analysis of the deposited data

How the results depend on the processing

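Of 351 changes of members refitted on the full set of libraries (9 genes, 3 contrasts, 13 settings), 322 kept their direction and side of the threshold, as did 289 of 324 with a library left out. Members called higher numbered 1 for mRNA and 2 for RPF, and members called lower likewise 1 and 2. All 4 counts became 0 with the fold limit. For mRNA, higher members numbered 3 with the GC correction and 3 with the GC correction and a replicate block. Lower members numbered 2 in DESeq2, 3 with DESeq2 size factors and 2 with every gene with a count. For RPF, higher members numbered 1 with every gene with a count, 4 with the GC correction and 5 with the GC correction and replicate block. Dropping single libraries gave ranges for mRNA of 1 to 2 (higher) and 0 to 3 (lower), and for RPF of 1 to 2 in both directions. TE had 0 throughout. For each of these the cause was not tested. The median RPF change was 0.13 over the 17067 genes with a count and 0.01 over the 11750 genes of the main fit. These medians cover different genes, so they do not show a shift of the same genes.

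Changes that turned sign were far from a call. Across the fits without 1 library, the Upf3b mRNA change ran from -0.107 to 0.0792, that of Smg9 from -0.116 to 0.0067, the Upf3a RPF change from -0.0250 to 0.0384, that of Smg9 from -0.239 to 0.0785, and the TE changes of Upf1 from -0.0073 to 0.144, Smg6 from -0.0712 to 0.269 and Smg9 from -0.161 to 0.156. The Upf1 TE change was -0.0095 with the GC correction and -0.0108 with the GC correction and replicate block, and that of Smg9 was 0.0150 in edgeR, 0.0346 in DESeq2 and 0.0448 in limma-trend.

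Deviations of same-numbered libraries correlated at -0.0127 to 0.0329 between the cell types in total RNA, 0.0194 to 0.0401 in RPF, and -0.182 to 0.0801 and 0.0153 to 0.163 between the assays in ESCs and EpiLCs. Of 6 libraries in each of these 4 pairs of groups, 2, 6, 1 and 4 correlated best with their own number. The study describes the total RNA as matched to the RPFs, but whether same-numbered libraries share a culture is not given in the sources used here, and the correlations do not establish a pairing. Over all genes, 67 were higher and 74 lower for TE, against 128 and 133 with the replicate block and 96 and 104 with the block within cell type. With the replicate block 1 member was higher and 1 lower in total RNA, 2 each way in RPF, and 0 in TE, while 1 target gene became called for TE. The Upf3a to Upf3b difference was -0.18 in total RNA and -0.15 in RPF with the replicate block and with a pseudocount of 0.5, and -0.31 to -0.05 and -0.22 to -0.06, respectively, when single libraries were dropped. Ranked only among genes with 10 counts in every library, the TE of Smg1 was at percentile 1.10 in ESCs and 0.715 in EpiLCs.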
